A study of Mus musculus with 12 samples.

Results

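Bone-marrow-derived macrophages labelled Cbl-b-/- were set directly against macrophages labelled Cbl-/-, across all genes of a table of read counts. The comparison rests on 6 of the 12 libraries of the series, 3 whose titles give Cbl-b and 3 whose titles give Cbl. The other 6 libraries, 3 of the double knockout (DKO) and 3 of wild type (WT), shared the estimate of the spread and are given beside the results. All 12 were taken at day 9 of culture in medium with L-cell supernatant, which supplies CSF-1, the macrophage growth factor. The labels name no strain, no allele, no Cre line and no age of the animals, and although RNA is said to have been pooled in equal concentration, what went into a pool is not stated. Nothing says that replicates came from separate mice, so the p-values speak only of library-to-library spread, part or all of which may be technical.

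The proteins Cbl and Cbl-b belong to 1 family of RING finger ubiquitin ligases. They bind activated tyrosine kinases, attach ubiquitin to them and so send receptors such as the CSF-1 receptor for internalisation and degradation. CSF-1 keeps macrophages alive, drives them into the cell cycle and maintains their identity. Setting one single knockout against the other asks whether the 2 ligases, missing one at a time, leave macrophages in different states.

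Total counts were 21048103 to 34099547 in the libraries labelled Cbl-b-/- and 23892790 to 35129318 in Cbl-/-, and 21048103 to 43946503 over all 12. The biological coefficient of variation was 7.79% in the libraries labelled Cbl-b-/- and 4.26% in Cbl-/-. In a principal component analysis of the 6 libraries, Cbl-b-/- 3, the least deep of all, stood apart: it lay at -43.0 on the first component (45.8% of the variance), against -10.7 and -12.9 for Cbl-b-/- 1 and 2 and 19.7 to 24.4 for Cbl-/-. The macrophage markers Csf1r, Adgre1, Cd68, Itgam and Lyz2, chosen after their values were seen, were present in every library. Levels are CPM, counts scaled to a common library size, and they are not divided by gene length, so they compare libraries and not genes. Fold changes are Cbl-b-/- over Cbl-/- on the log2 scale, and adjusted p-values are from edgeR's quasi-likelihood test with Benjamini-Hochberg adjustment over 12671 genes and a threshold of 0.05.

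The genes named in the labels come before the rest. Cbl lies on chromosome 9, 44142976 to 44234049 (ENSMUSG00000034342, GRCm38). Cbl had 143, 137 and 138 CPM in the libraries labelled Cbl-b-/-, against 54.0, 51.2 and 49.3 CPM in Cbl-/-. It had 41.0, 36.8 and 35.0 CPM in the libraries labelled DKO and 141, 143 and 136 CPM in WT. The libraries of the 2 single knockouts did not overlap for Cbl (log2 fold change 1.44, SE 0.06, adjusted p = 1.1e-10). Cblb (ENSMUSG00000022637, chromosome 16, 52031225 to 52208048) had 54.5, 54.4 and 49.4 CPM in the libraries labelled Cbl-b-/-, against 67.9, 68.2 and 69.2 CPM in Cbl-/-. It had 73.4, 68.0 and 73.7 CPM in the libraries labelled DKO and 62.2, 55.5 and 60.6 CPM in WT. Cblb was therefore lower in the libraries labelled Cbl-b-/- than in Cbl-/- (log2 fold change -0.37, SE 0.06, adjusted p = 0.0011), but its transcript was not lost. Against WT the log2 fold change was -0.17 in Cbl-b-/- (adjusted p = 0.46) and 0.20 in Cbl-/- (adjusted p = 0.048). A mutation that spares the transcript would not be seen in gene-level counts. The label Cbl-b-/- thus has no check in these counts, and every direction below rests on it.

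The 2 labels differed in many genes and mostly by small amounts. Of 12671 genes tested, 934 passed the threshold (7.37%), 412 higher (3.25%) and 522 lower (4.12%) in the libraries labelled Cbl-b-/-. At least 2-fold differences were found for 78 higher genes (0.616%) and 95 lower genes (0.75%), while 614 of the 934 differed by less than 1.5-fold. The median difference of a called gene was 1.34-fold. All 934 had their 3 Cbl-b-/- libraries on 1 side of the 3 Cbl-/- libraries, as had 31.5% of all genes tested. The plot of fold change against level shows the spread around 0, with a median log2 fold change of 0.00 over all genes. The count of calls was lower with any 1 of the 6 compared libraries left out. It was 533, 550 and 558 genes without Cbl-/- 1, 2 and 3, and 737, 681 and 665 without Cbl-b-/- 1, 2 and 3. With only the 6 compared libraries in the fit the count was higher, at 1712.

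**Figure D1:**
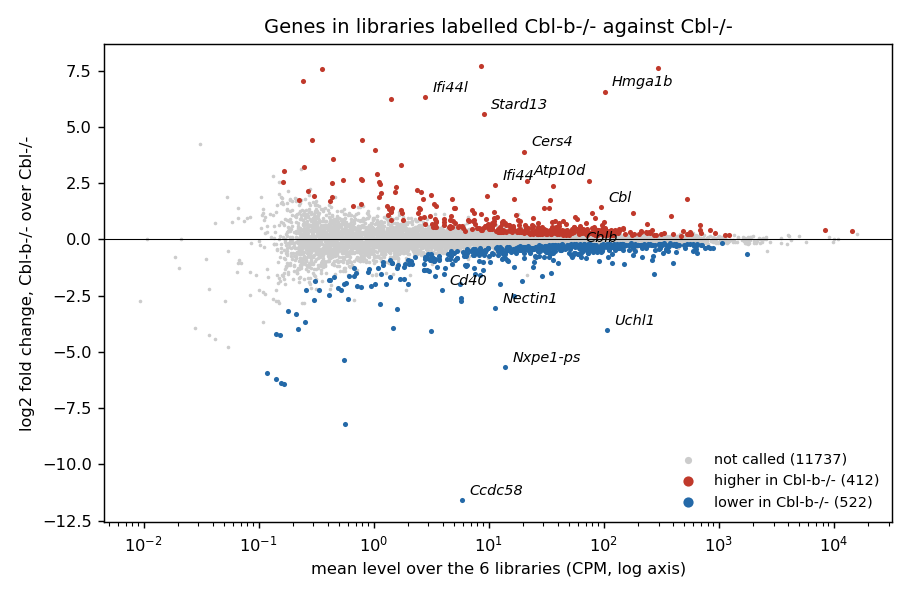
Log2 fold change of each gene, libraries labelled Cbl-b-/- over Cbl-/- (vertical axis), against its mean level over the 6 libraries in CPM (horizontal log axis). The 412 genes higher and 522 genes lower in Cbl-b-/- are coloured, and the named genes Hmga1b, Ifi44l and Stard13 lie near the top and Ccdc58 and Nxpe1-ps near the bottom, beside unlabelled points that are gene models or of low level.

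WT helped to place these differences. For 826 of the 934 called genes (88.4%) the WT mean lay nearer to the mean of the libraries labelled Cbl-b-/- than to that of Cbl-/- on the log2 scale, and for 108 it lay nearer to Cbl-/-. Over all genes tested the share was 62.1%. The libraries labelled DKO, in which Cbl was low as in Cbl-/-, did not lie with Cbl-/- as a rule: they were nearer to Cbl-b-/- for 407 of the called genes (43.6%) and nearer to Cbl-/- for 527, against 43.8% nearer to Cbl-b-/- over all genes tested. Both WT and DKO were nearer to Cbl-b-/- for 365 called genes, among them many of the largest differences. These shares are descriptions without a test.

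Among called genes with a mean of at least 2 CPM and a symbol other than a gene model name, the 12 largest increases in the libraries labelled Cbl-b-/- were Hmga1b, Ifi44l, Stard13, Cers4, Atp10d, Ifi44, Cnbd2, Bcl2a1d, Abhd1, Cdkn2b, Nectin3 and Ankrd29. Cers4, a ceramide synthase of sphingolipid metabolism (ENSMUSG00000008206, chromosome 8, 4493026 to 4531680), had 38.2, 38.1 and 37.8 CPM in the libraries labelled Cbl-b-/-, against 2.11, 2.73 and 2.80 CPM in Cbl-/- (log2 fold change 3.90, SE 0.10, adjusted p = 1.4e-13). It had 30.7 to 31.8 CPM in DKO and 35.4 to 40.9 CPM in WT, so the Cbl-/- libraries alone were low. The same held for Atp10d, which encodes a lipid flippase: 33.4, 37.5 and 39.6 CPM in Cbl-b-/-, against 5.30, 5.58 and 7.04 CPM in Cbl-/-, with 40.5 to 44.1 CPM in DKO and 33.7 to 37.3 CPM in WT. Stard13, which encodes a START domain protein, had 17.8, 18.4 and 17.0 CPM in Cbl-b-/-, against 0.553, 0.165 and 0.364 CPM in Cbl-/- (log2 fold change 5.56, SE 0.18, adjusted p = 2.8e-12). It overlaps the gene model Gm42906, and no source used here says whether strand was used in counting, so its value is uncertain.

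Not every large increase had DKO on the side of Cbl-b-/-. Cnbd2 had 62.0, 68.8 and 51.1 CPM in Cbl-b-/-, against 12.6, 12.3 and 10.7 CPM in Cbl-/-, and its DKO libraries, at 14 to 18.4 CPM, lay near Cbl-/-. Its overlapping neighbour Scand1, chosen after its values were seen, did not pass (log2 fold change 0.13, adjusted p = 0.69). Nectin3, a cell adhesion molecule, had 13.9, 16.1 and 15.8 CPM in Cbl-b-/-, against 3.71, 4.67 and 3.76 CPM in Cbl-/-, with 4.29 to 5.92 CPM in DKO and 14.4 to 16 CPM in WT. Cdkn2b, the inhibitor p15 of the cyclin-dependent kinases that open the cell cycle, had 4.73, 3.95 and 6.57 CPM in Cbl-b-/-, against 1.66, 0.661 and 1.46 CPM in Cbl-/-, with 1.84 to 2.29 CPM in DKO. For these 3 genes the libraries labelled DKO and Cbl-/- were both low and those labelled Cbl-b-/- and WT both high.

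Hmga1b had the largest log2 fold change of these 12 increases, 6.57 (SE 0.27), with 220, 186 and 201 CPM in the libraries labelled Cbl-b-/-, against 3.45, 1.40 and 1.49 CPM in Cbl-/-. It is a near-identical copy of Hmga1, a chromatin protein gene chosen here after its values were seen, which went the other way: 160, 133 and 133 CPM in Cbl-b-/-, against 408, 404 and 409 CPM in Cbl-/- (log2 fold change -1.52, SE 0.09, adjusted p = 7.9e-09). Reads could be split between the copies, so both values are uncertain. The same limit holds for Bcl2a1d (log2 fold change 2.18) and Bcl2a1b (-1.97), copies of a gene that protects cells from apoptosis, which also went in opposite directions. Bcl2a1b also overlaps the gene model Gm29094.

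The 12 largest decreases by the same rule were Ccdc58, Nxpe1-ps, Gt(ROSA)26Sor, Uchl1, Nectin1, Fkbp9, Igf2bp3, Fam162a, Cd40, Bcl2a1b, Met and Neo1. Uchl1, an abundant ubiquitin hydrolase of neurons (ENSMUSG00000029223, chromosome 5, 66676091 to 66687234), had 12.1, 12.5 and 12.3 CPM in the libraries labelled Cbl-b-/-, against 196, 198 and 207 CPM in Cbl-/-. That is 16.3-fold lower (log2 fold change -4.03, SE 0.08, adjusted p = 5.95e-15), with 23.4 to 26.7 CPM in DKO and 12.9 to 16 CPM in WT. High Uchl1 was thus a mark of the 3 Cbl-/- libraries. Fkbp9, a prolyl isomerase of the endoplasmic reticulum, had 1.39, 1.67 and 1.42 CPM in Cbl-b-/-, against 9.63, 9.09 and 11.6 CPM in Cbl-/-. Igf2bp3, an RNA-binding protein gene that overlaps Malsu1, had 1.66, 1.38 and 1.79 CPM in Cbl-b-/-, against 11.8, 9.42 and 8.18 CPM in Cbl-/-. In both genes DKO and WT were near Cbl-b-/-.

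Ccdc58 (ENSMUSG00000075229, chromosome 16, 36071685 to 36092120) had no count in any library labelled Cbl-b-/-, against 11.5, 11 and 12.7 CPM in Cbl-/-. Set against a floor of 3 counts over the group, it was at least 342-fold lower, and DKO and WT had at most 0.0476 CPM in a library. The next gene on the chromosome, Fam162a (36043761 to 36071594), which overlaps Wdr5b, had 5.05, 6.36 and 3.26 CPM in Cbl-b-/-, against 28.0, 32.1 and 25.5 CPM in Cbl-/-. Gt(ROSA)26Sor, the transcript of the Rosa26 locus, which overlaps Thumpd3, had 0.29, 0.611 and 0.0919 CPM in Cbl-b-/-, against 6.77, 5.83 and 5.49 CPM in Cbl-/-, with 2.29 to 3.32 CPM in DKO and 0.107 to 0.238 CPM in WT. These low transcripts were called in every alternative that tested them, also with each library left out.

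Of the 24 largest differences, WT lay nearer to the libraries labelled Cbl-b-/- in 24 and DKO in 19. The exceptions for DKO were Cnbd2, Nectin3, Cdkn2b, Gt(ROSA)26Sor and Met. Met, the receptor tyrosine kinase for hepatocyte growth factor and a known target of Cbl, had 1.97, 2.25 and 2.71 CPM in Cbl-b-/-, against 8.33, 9.96 and 8.58 CPM in Cbl-/- (log2 fold change -1.97, SE 0.15), 17.7 to 23.1 CPM in DKO and 3.05 to 3.86 CPM in WT.

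**Figure D2:**
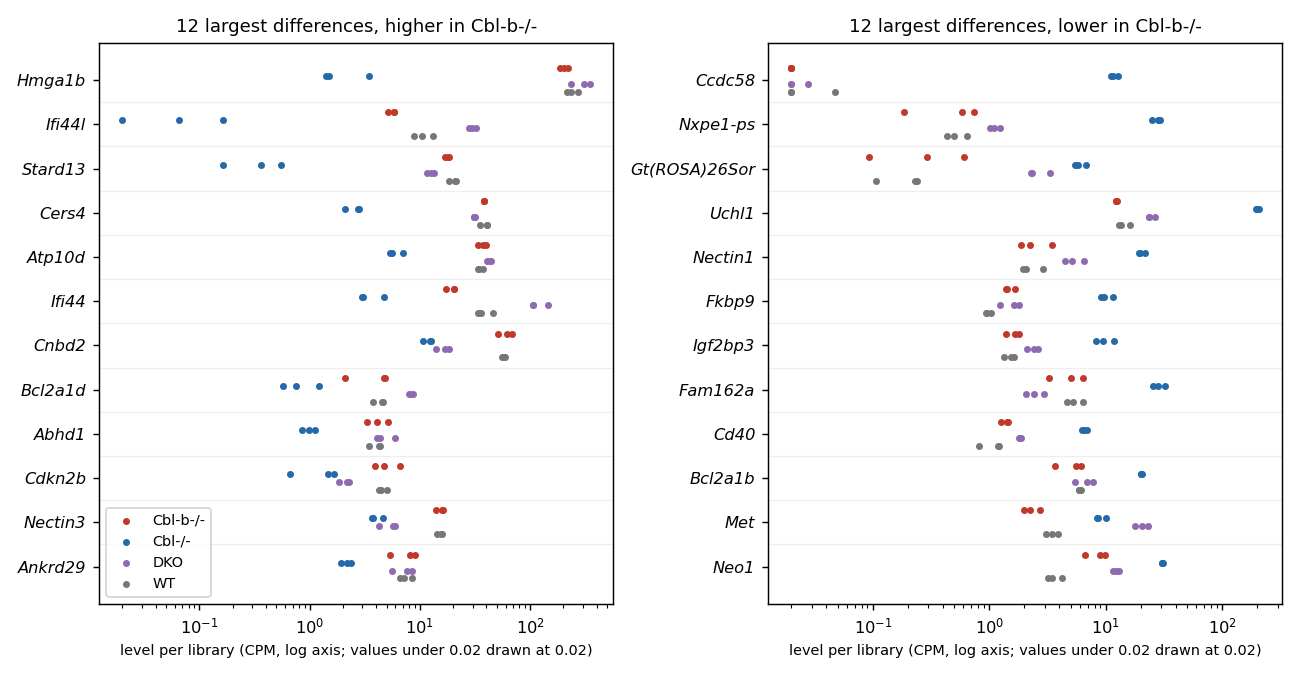
Level of the 12 largest increases (left) and 12 largest decreases (right) in every library, in CPM on a log axis, with 1 point per library and 1 colour per group. For Cers4 the Cbl-b-/- libraries sit at 37.8 to 38.2 CPM and the Cbl-/- libraries at 2.11 to 2.80, with DKO and WT beside Cbl-b-/-.

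Gene lists for pathways and cell types were then read against the share of all genes called, 7.37%. The list for mitosis had the largest share of called genes among the 26 pathway lists. Of 24 mitosis genes tested, 16 were lower and 1 was higher in the libraries labelled Cbl-b-/-, and 7 did not pass. That is 70.8% called, against 7.37% of all genes, with a median log2 fold change of -0.24 against 0.00. Each difference was small, and the count of lower genes moved with the libraries: it was 7 without Cbl-b-/- 1, 9 without Cbl-b-/- 2, 8 without Cbl-/- 2 and 10 without Cbl-/- 1 or 3, against 15 without Cbl-b-/- 3.

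Mki67, the proliferation marker Ki-67 that coats mitotic chromosomes, had 723, 734 and 726 CPM in the libraries labelled Cbl-b-/-, against 975, 946 and 908 CPM in Cbl-/- (log2 fold change -0.37, SE 0.07, adjusted p = 0.0016). Ube2c, which passes ubiquitin to targets of the anaphase-promoting complex and whose gene overlaps Tnnc2, had 119, 124 and 123 CPM in Cbl-b-/-, against 147, 159 and 156 CPM in Cbl-/- (log2 fold change -0.33, SE 0.06). Neither gene had overlapping libraries, as held for all 934 called genes and 31.5% of all genes tested. Kif23, a motor protein of cytokinesis, had 120, 120 and 113 CPM in Cbl-b-/-, against 147, 149 and 149 CPM in Cbl-/-, and Cdk1, the kinase that starts mitosis, had 120, 129 and 122 CPM in Cbl-b-/-, against 145, 148 and 150 CPM in Cbl-/-. The exception was Ttk, a kinase of the spindle checkpoint, chosen after its values were seen, with 40.7, 44.1 and 45.1 CPM in Cbl-b-/-, against 32.5, 33.3 and 33.1 CPM in Cbl-/-. WT lay nearer to Cbl-b-/- for all 17 called mitosis genes, and DKO for 12 of them.

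Many promoters of genes expressed in mitosis carry the cell cycle genes homology region (CHR), bound by complexes that hold these genes off until the cell divides. RefSeq promoter windows on GRCm38.p6, from 250 bases before to 50 after each start, were matched for 20 of the 24 mitosis genes, with 21 windows. The letters TTTGAA, searched on both strands, were in 16 of the 21 windows (76.2%), against 17.9% of all 32851 windows. In the 250 bases before the start alone, the shares were 38.1% and 16%. A match is a description of the letters and not a bound site, and the shares do not bear on the difference between the 2 labels. The windows before the starts of Mki67 (chr7:135716380-135716629, minus strand) and Ube2c (chr2:164769679-164769928, plus strand) are printed because these 2 genes had the smallest adjusted p of the list among those with a match there. Capitals mark TTTGAA or its reverse complement.
Mki67: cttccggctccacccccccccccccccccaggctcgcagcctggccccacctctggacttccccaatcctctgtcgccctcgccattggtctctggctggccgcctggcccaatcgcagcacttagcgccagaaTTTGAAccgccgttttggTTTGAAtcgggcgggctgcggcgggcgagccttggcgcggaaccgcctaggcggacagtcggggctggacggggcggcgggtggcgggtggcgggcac
Ube2c: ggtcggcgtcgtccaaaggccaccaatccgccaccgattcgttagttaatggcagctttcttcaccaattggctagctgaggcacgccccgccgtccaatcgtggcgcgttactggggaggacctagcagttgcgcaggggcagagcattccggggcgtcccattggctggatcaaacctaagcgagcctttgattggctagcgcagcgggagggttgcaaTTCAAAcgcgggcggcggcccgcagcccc

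Of 26 replication and S-phase genes, 2 were higher and 4 were lower in the libraries labelled Cbl-b-/- (23.1% called), and 20 did not pass. The list had a median log2 fold change of -0.14, with 24 of 26 genes below 0. Ccne1, the cyclin of S-phase entry, had 33.8, 34.5 and 35.0 CPM in Cbl-b-/-, against 44, 40.7 and 43.6 CPM in Cbl-/- (log2 fold change -0.31), and Uhrf1, which keeps DNA methylation through replication, had a log2 fold change of -0.25. Tyms, which makes thymidylate, went the other way, with 68.6, 71.7 and 66.8 CPM in Cbl-b-/-, against 54.5, 52.5 and 53.2 CPM in Cbl-/-, as did Rfc3, a subunit of the clamp loader (log2 fold change 0.45). The count of lower genes was 10 with the 6 compared libraries alone, 11 without the DKO libraries, 2 without Cbl-b-/- 2 and 2 without Cbl-/- 2.

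Inflammatory genes were lower in the libraries labelled Cbl-b-/-. Of 22 cytokine and NF-kB target genes tested, 12 were lower, 1 was higher and 9 did not pass (59.1% called), with a median log2 fold change of -0.37. NF-kB is the transcription factor that toll-like receptors and TNF activate, and several of the genes it turns on feed back to stop it. Cd40, a costimulatory receptor, had 1.25, 1.45 and 1.42 CPM in the libraries labelled Cbl-b-/-, against 6.47, 6.28 and 6.87 CPM in Cbl-/- (log2 fold change -2.25, SE 0.19, adjusted p = 4.9e-07), with 1.78 to 1.88 CPM in DKO and 0.821 to 1.21 CPM in WT. Socs3, a feedback inhibitor of cytokine signalling, had 9.70, 9.71 and 10.7 CPM in Cbl-b-/-, against 18.1, 18.5 and 19.5 CPM in Cbl-/-, with 18.7 to 24.5 CPM in DKO and 5.07 to 6.13 CPM in WT. Cd40 was thus high in Cbl-/- alone, while Socs3 was high in Cbl-/- and DKO.

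Members of the list that restrain NF-kB or cytokine signalling included Tnfaip3, Tnip1, Il1rn, Nfkbia and Nfkbie, which were lower. Nfkbia (log2 fold change -0.39, adjusted p = 0.0072) and Nfkbie (-0.37, adjusted p = 0.030) were chosen after their values were seen. So was Tnip3, which did not pass (adjusted p = 0.056). Nfkbiz, chosen likewise and not simply a restrainer, did not pass either (adjusted p = 0.10). Tnfaip3, the ubiquitin-editing enzyme A20, had 31.4, 29.9 and 25.4 CPM in the libraries labelled Cbl-b-/-, against 45.0, 45.0 and 42.4 CPM in Cbl-/- (log2 fold change -0.61, SE 0.09, adjusted p = 4.0e-04). Its partner Tnip1 had 91.5, 99.4 and 84.4 CPM in Cbl-b-/-, against 126, 134 and 127 CPM in Cbl-/-. Il1rn, the antagonist of the interleukin-1 receptor, chosen after its values were seen, had 8.10, 10.7 and 8.82 CPM in Cbl-b-/-, against 13.9, 15 and 15.8 CPM in Cbl-/-. None of these 3 genes had overlapping libraries, as held for all 934 called genes and 31.5% of all genes tested. Tnf, chosen in the same way, had 60.9, 77.3 and 73.5 CPM in Cbl-b-/-, against 92.6, 94.0 and 94.8 CPM in Cbl-/- (log2 fold change -0.41, SE 0.08). The member that was higher was Il18, also chosen after its values were seen (log2 fold change 0.80, adjusted p = 0.035), and the list's count of higher genes was 0 without Cbl-b-/- 1 or 2 or Cbl-/- 1 or 2. WT lay nearer to Cbl-b-/- for all 13 called genes of the list and DKO for 2 of them.

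An NF-kB motif, GGG followed by 2 bases of any kind and TTTCC, was searched on both strands in the windows of 16 of the 22 list genes. It was in 7 of 21 windows (33.3%), against 1.63% of all windows, and in the 250 bases before the start it was in 23.8% and 1.41%. The list was drawn up to hold NF-kB targets, so these shares do not bear on the difference between the 2 labels. The 2 windows printed, of Tnfaip3 (chr10:19015411-19015660, minus strand) and Il1rn (chr2:24345121-24345370, plus strand), are those of the lower genes with the smallest adjusted p that had a match before the start. Capitals mark the motif or its reverse complement.
Tnfaip3: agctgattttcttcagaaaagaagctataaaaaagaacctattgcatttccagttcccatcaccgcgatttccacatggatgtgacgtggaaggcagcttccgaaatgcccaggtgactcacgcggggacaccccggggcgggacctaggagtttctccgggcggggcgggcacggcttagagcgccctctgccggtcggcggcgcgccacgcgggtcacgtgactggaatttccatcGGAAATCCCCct
Il1rn: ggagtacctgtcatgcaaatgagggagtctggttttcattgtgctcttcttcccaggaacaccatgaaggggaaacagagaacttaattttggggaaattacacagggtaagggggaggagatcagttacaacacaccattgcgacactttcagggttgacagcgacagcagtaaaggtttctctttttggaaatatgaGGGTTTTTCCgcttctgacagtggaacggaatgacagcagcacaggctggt

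**Figure D3:**
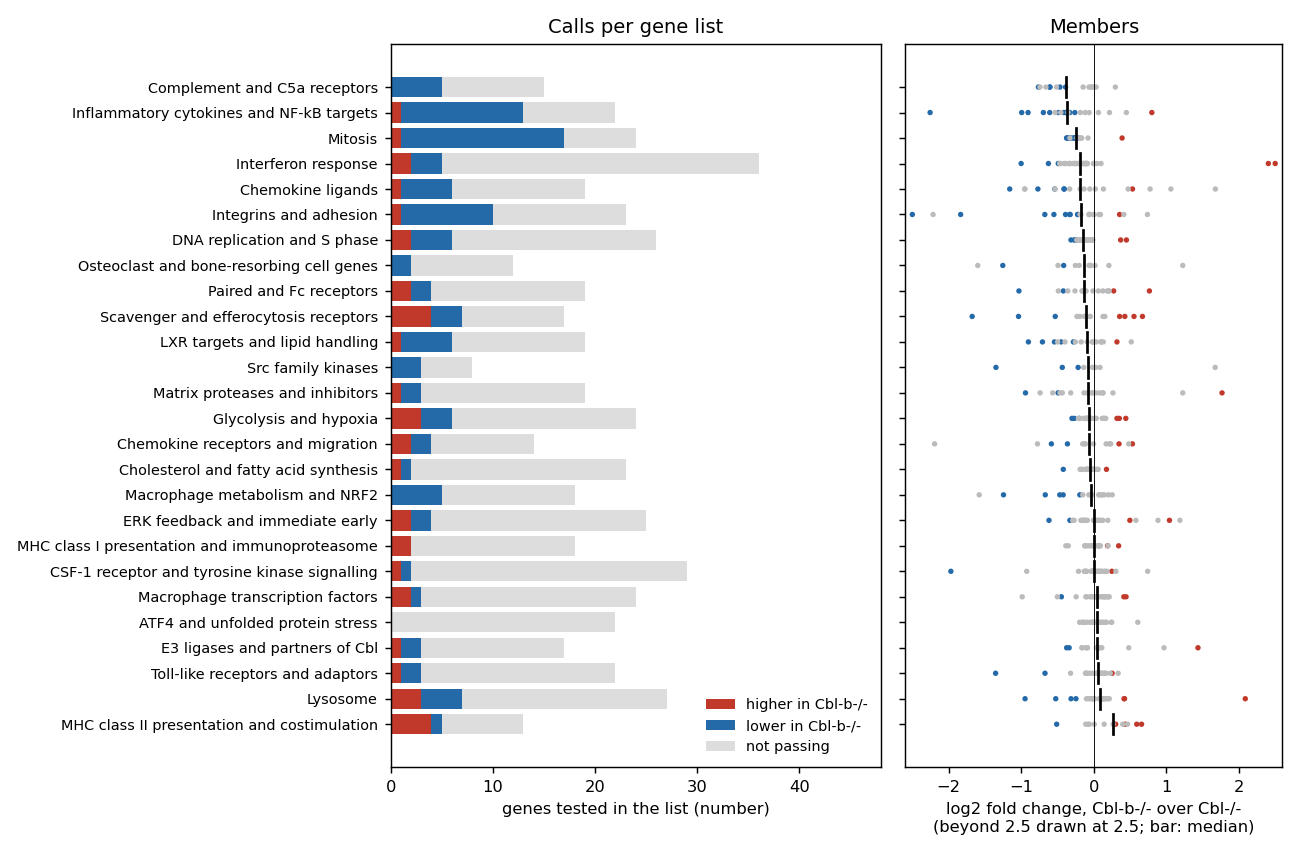
Number of genes higher, lower and not passing in each of 26 pathway lists (left) and log2 fold change of each member, Cbl-b-/- over Cbl-/-, with the list's median as a bar (right). The lists for complement (5 of 15 lower), inflammatory genes (12 of 22 lower) and mitosis (16 of 24 lower) have the lowest medians, and the MHC class II list (4 of 13 higher) has the highest.

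Genes upstream and downstream of this response were mixed. Of 22 toll-like receptor genes, 2 were lower, Tlr2 and Ly86, 1 was higher, Tirap, and 19 did not pass (13.6% called). The Tirap call was lost without any library other than Cbl-b-/- 1, and under limma voom, the replicate block and no filter on low counts. Tlr2, the receptor for bacterial lipoproteins, had 126, 154 and 133 CPM in the libraries labelled Cbl-b-/-, against 220, 222 and 217 CPM in Cbl-/-, with 86.3 to 90.1 CPM in WT. The Cbl-b-/- libraries lay between those 2 groups, and DKO, at 200 to 229 CPM, lay near Cbl-/-. Of 19 chemokine ligand genes, 5 were lower, 1 was higher and 13 did not pass (31.6% called). Ccl2, which attracts monocytes, had 139, 171 and 148 CPM in Cbl-b-/-, against 206, 227 and 232 CPM in Cbl-/-, and 559 to 614 CPM in DKO. Cxcl14, the higher one, had 68.6, 62.3 and 64.8 CPM in Cbl-b-/-, against 45.2, 46.1 and 43.9 CPM in Cbl-/-, and 15.5 to 18 CPM in DKO. Without Cbl-b-/- 3 the number of lower chemokine ligands was 2.

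Of 18 genes of macrophage metabolism and NRF2, 5 were lower, 0 were higher and 13 did not pass (27.8% called). The median log2 fold change was -0.04. The count of lower genes was 3 without Cbl-b-/- 1 or Cbl-/- 2. Acod1, which makes the antimicrobial metabolite itaconate, had 10.7, 18.7 and 14.2 CPM in the libraries labelled Cbl-b-/-, against 32.1, 35.8 and 35.3 CPM in Cbl-/- (log2 fold change -1.24, SE 0.14, adjusted p = 2.7e-05), 97.3 to 107 CPM in DKO and 4.79 to 5.47 CPM in WT. Ass1, which regenerates arginine, had 40.9, 58.7 and 40.0 CPM in Cbl-b-/-, against 73.6, 77.1 and 71.8 CPM in Cbl-/-. Both genes ran in the order WT, Cbl-b-/-, Cbl-/- and DKO by mean level. Their calls were lost in the fit of 5 libraries without Cbl-b-/- 3. Sod2, the superoxide dismutase of mitochondria, had a log2 fold change of -0.42 (SE 0.06) and kept its call there.

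Of 15 complement genes, 5 were lower and 10 did not pass (33.3% called), with the lowest median of the pathway lists, -0.39. That median rests in part on Cd55, C2 and Cfb, chosen after their values were seen. These had low but imprecise log2 fold changes (SE 0.32, 0.54 and 0.55) and did not pass. Without Cbl-b-/- 1, 3 were lower. C5ar1, the receptor for the fragment C5a, had 496, 525 and 529 CPM in the libraries labelled Cbl-b-/-, against 708, 751 and 899 CPM in Cbl-/- (log2 fold change -0.61, SE 0.11, adjusted p = 0.0033). The second C5a receptor, C5ar2, had 15.3, 15.5 and 18.1 CPM in Cbl-b-/-, against 23.5, 24.2 and 26.3 CPM in Cbl-/- (log2 fold change -0.60, SE 0.10). WT lay below both groups in both genes, at 207 to 297 CPM for C5ar1 and 2.59 to 2.93 CPM for C5ar2, and DKO lay lower again. C3, the central complement component, had 21.6, 32.4 and 19.8 CPM in Cbl-b-/-, against 38.8, 44.2 and 43.1 CPM in Cbl-/-, and lost its call in the fit of the 6 compared libraries alone. C1qa, a chain of the first component, had a log2 fold change of -0.47 and lost its call without Cbl-b-/- 1, Cbl-b-/- 2 or Cbl-/- 3.

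MHC class II genes were higher in the libraries labelled Cbl-b-/-. Of 13 genes for class II presentation and costimulation, 4 were higher, 1 was lower and 8 did not pass (38.5% called), with a median log2 fold change of 0.27. The 4 were chains of the class II molecules and the invariant chain that guides them to the endosome. H2-Eb1 had 16.9, 18.7 and 16.1 CPM in Cbl-b-/-, against 10.2, 11.8 and 10.9 CPM in Cbl-/- (log2 fold change 0.66, SE 0.10, adjusted p = 3.9e-04), with 28.0 to 35.4 CPM in DKO and 22.4 to 22.8 CPM in WT. H2-Aa had 27.2, 32.2 and 29.1 CPM in Cbl-b-/-, against 18, 19.997 and 20.7 CPM in Cbl-/-, with 44.4 to 51.3 CPM in DKO and 33.3 to 37.1 CPM in WT. The order was the same for both, Cbl-/- lowest, then Cbl-b-/-, then WT and then DKO, with no overlap between neighbours. Cd74, the invariant chain, had 118, 126 and 126 CPM in Cbl-b-/-, against 96.9, 102 and 100.4 CPM in Cbl-/-, and H2-Ab1 lost its call without Cbl-b-/- 2, Cbl-/- 2 or Cbl-/- 3. The lower member was the costimulatory ligand Cd86, chosen after its values were seen (log2 fold change -0.51, adjusted p = 0.039), and the list's count of lower genes was 0 without any library other than Cbl-b-/- 2. Of 18 class I and immunoproteasome genes, H2-T23 and H2-D1 were higher and 16 did not pass (11.1% called). The H2-D1 call was lost without any library other than Cbl-/- 3, and the H2-T23 call without Cbl-/- 1 or 2.

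**Figure D4:**
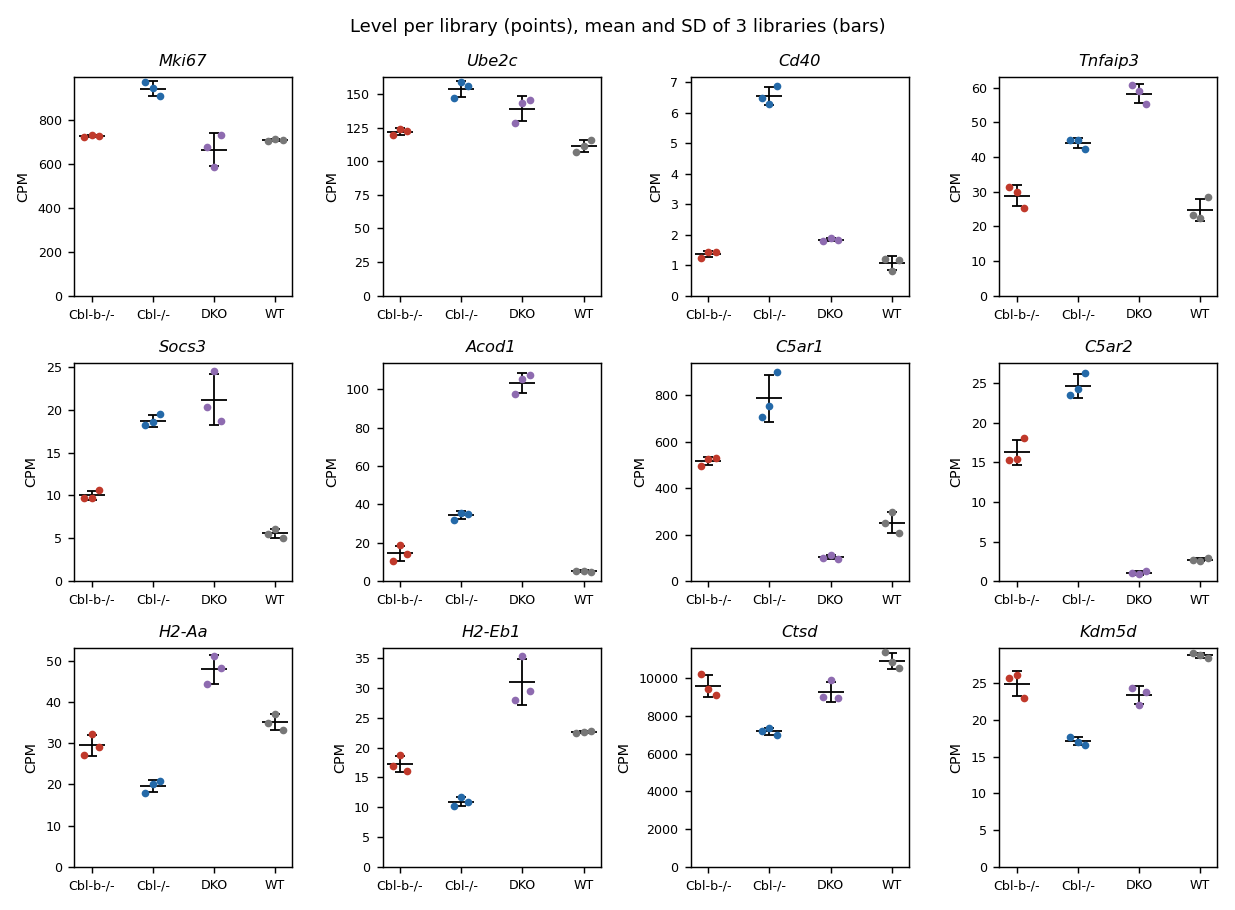
Level of 12 genes in each library in CPM (points), with mean and SD of 3 libraries (bars), for Cbl-b-/-, Cbl-/-, DKO and WT from left to right. H2-Aa and H2-Eb1 are lowest in Cbl-/-, Cd40 is high in Cbl-/- alone, and Acod1 and Socs3 are lower in Cbl-b-/- than in Cbl-/-.

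The CSF-1 receptor pathway itself differed little in its transcripts. Of 29 receptor and tyrosine kinase signalling genes, 1 was lower, Met, 1 was higher, Tyrobp, and 27 did not pass (6.90% called, near the background). With the 6 compared libraries alone, 5 were higher and 2 lower. Csf1r had 2205, 2285 and 2398 CPM in the libraries labelled Cbl-b-/-, against 2175, 2164 and 2240 CPM in Cbl-/-. Its log2 fold change was 0.07 (95% interval -0.06 to 0.19, adjusted p = 0.57). Tyrobp, the adaptor DAP12, had 593, 604 and 572 CPM in Cbl-b-/-, against 503, 530 and 457 CPM in Cbl-/-, and its call (adjusted p = 0.039) was lost without any library other than Cbl-/- 2. Of 8 genes in the list for Src family kinases, which carry signals from such receptors, 3 were lower and 5 did not pass (37.5% called). The list also holds Csk and Pag1, which are not members of that family and did not pass. Src had 1.77, 1.64 and 1.47 CPM in Cbl-b-/-, against 3.84, 4.75 and 3.98 CPM in Cbl-/- (log2 fold change -1.35, SE 0.19), with 5.72 to 7.64 CPM in DKO and 1.19 to 1.59 CPM in WT. Fgr had 21.7, 24.2 and 17.9 CPM in Cbl-b-/-, against 29.2, 28.4 and 28.9 CPM in Cbl-/-, and 45.2 to 53.9 CPM in DKO.

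Of 17 ligases and partners of Cbl, Cbl was higher, Cblb and Ubash3b were lower and 14 did not pass (17.65% called). Ubash3b, the phosphatase Sts-1 that binds Cbl, had 103, 104 and 103 CPM in the libraries labelled Cbl-b-/-, against 128, 124 and 141 CPM in Cbl-/-, and it lies within 5 Mb of Cbl. Among 25 feedback and immediate early genes of the ERK pathway, 2 were higher, 2 were lower and 21 did not pass (16% called). Dusp6, the phosphatase that turns ERK off, had 162, 175 and 180 CPM in Cbl-b-/-, against 112, 119 and 135 CPM in Cbl-/-, with 59.7 to 64.7 CPM in DKO and 135 to 184 CPM in WT. Fosb, a subunit of the transcription factor AP-1, had 6.91, 5.21 and 6.80 CPM in Cbl-b-/-, against 3.16, 3.26 and 2.77 CPM in Cbl-/-. The other AP-1 members Fosl1 and Fosl2 were lower, at -0.62 and -0.33, and without Cbl-b-/- 2 or 3 or Cbl-/- 1 or 3 neither was called. Fosl1 overlaps Ccdc85b.

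Of 36 interferon response genes, 2 were higher, 3 were lower and 31 did not pass (13.9% called, against 7.37% of all genes). The median log2 fold change was -0.19. The 2 higher ones were neighbours on chromosome 3 and far larger than the rest. Ifi44l (151758737 to 151762892) had 5.81, 5.11 and 5.79 CPM in the libraries labelled Cbl-b-/-, against 0.0651, 0.165 and 0 CPM in Cbl-/- (log2 fold change 6.31, SE 0.35, adjusted p = 3.8e-09). Ifi44 (151730922 to 151749960) had 20.3, 20.4 and 17.1 CPM in Cbl-b-/-, against 2.96, 3.02 and 4.76 CPM in Cbl-/-. In both genes WT was higher than Cbl-b-/- and DKO was higher again, at 27.8 to 32.1 CPM for Ifi44l and 106 to 144 CPM for Ifi44. Oasl1, Gbp7 and Gbp2 were the lower ones, and Oasl1, which overlaps the gene model Gm13822, had 6.68, 5.85 and 5.19 CPM in Cbl-b-/-, against 10.3, 10.0 and 15.2 CPM in Cbl-/-. Gbp7 lost its call without Cbl-/- 3, where 1 gene of the list was lower. The interferon-stimulated response element, searched on both strands as GAAA, 2 bases of any kind and GAAA, was in 16 of 33 windows of the list (48.5%), against 3.44% of all. The list was drawn up to hold interferon response genes, so this share does not bear on the difference between the 2 labels.

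Adhesion genes were lower more often than higher. Of 23 integrins and adhesion genes, 9 were lower, 1 was higher, Itgb5, and 13 did not pass (43.5% called). Nectin1, an immunoglobulin-like adhesion molecule (chromosome 9, 43743984 to 43807461), had 2.24, 1.86 and 3.45 CPM in the libraries labelled Cbl-b-/-, against 19.3, 21.9 and 19.8 CPM in Cbl-/- (log2 fold change -3.05, SE 0.19, adjusted p = 2.0e-08), with 4.46 to 6.46 CPM in DKO. Neo1, the receptor neogenin, had 8.97, 9.93 and 6.62 CPM in Cbl-b-/-, against 30.3, 30.4 and 31.2 CPM in Cbl-/-, with 3.18 to 4.18 CPM in WT. Sdc1, a heparan sulphate proteoglycan, had 42.9, 43.8 and 38.4 CPM in Cbl-b-/-, against 65.1, 67.2 and 67.8 CPM in Cbl-/-. Itga5, the fibronectin receptor chain, had 321, 324 and 324 CPM in Cbl-b-/-, against 414, 412 and 389 CPM in Cbl-/-. None of these 4 had overlapping libraries, as held for all 934 called genes and 31.5% of all genes tested.

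Scavenger and efferocytosis receptors went both ways, with 4 of 17 higher, 3 lower and 10 not passing (41.2% called). The count of higher genes was 2 without Cbl-b-/- 3 or Cbl-/- 2. Cd36, the receptor for oxidised lipoproteins, had 291, 257 and 247 CPM in the libraries labelled Cbl-b-/-, against 565, 548 and 518 CPM in Cbl-/- (log2 fold change -1.04, SE 0.10, adjusted p = 3.1e-06), with 259 to 302 CPM in WT. DKO, at 465 to 608 CPM, lay near Cbl-/-. Marco, a receptor for bacteria, had 0.494, 0.836 and 0.643 CPM in Cbl-b-/-, against 2.18, 1.78 and 2.33 CPM in Cbl-/-. Cd5l, which macrophages secrete, had 35.2, 28.2 and 32.0 CPM in Cbl-b-/-, against 22.9, 20.7 and 21.3 CPM in Cbl-/-, and Itgb5, an integrin chain that binds apoptotic cells, had 551, 520 and 578 CPM in Cbl-b-/-, against 420, 427 and 441 CPM in Cbl-/-. Of 19 LXR target and lipid genes, 5 were lower, 1 was higher and 13 did not pass (31.6% called). Without Cbl-/- 1, 3 were lower and 0 higher. Apoe had 287, 289 and 300 CPM in Cbl-b-/-, against 408, 381 and 408 CPM in Cbl-/-, and the cholesterol exporter Abca1 had 22.2, 26.3 and 31.2 CPM in Cbl-b-/-, against 38.0, 38.9 and 38.5 CPM in Cbl-/-. The fatty acid carrier Fabp4 was lower by -0.71 and Fabp5 by -0.28 on the log2 scale, and Fabp5 lost its call without Cbl-/- 1. In the synthesis of cholesterol and fatty acids, 1 of 23 was higher, Insig1, whose call was lost with any 1 library left out, and 1 lower, so that pathway was near the background.

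Of 27 lysosomal genes, 3 were higher, 4 were lower and 20 did not pass (25.9% called). Ctsd, the main aspartic protease of the lysosome, had 10224, 9419 and 9092 CPM in the libraries labelled Cbl-b-/-, against 7206, 7341 and 6967 CPM in Cbl-/- (log2 fold change 0.42, SE 0.06, adjusted p = 2.2e-04). Ctsh, a cysteine protease, had 63.4, 60.9 and 62.1 CPM in Cbl-b-/-, against 126, 116 and 116 CPM in Cbl-/- (log2 fold change -0.95, SE 0.06). Plbd1, a lysosomal phospholipase-like protein, had 2.15, 2.92 and 2.30 CPM in Cbl-b-/-, against 0.553, 0.661 and 0.533 CPM in Cbl-/-, with 7.47 to 9.73 CPM in DKO. The protective protein gene Ctsa, which overlaps Pltp, was higher by 0.42. With the 6 compared libraries alone 9 lysosomal genes were higher.

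Chemokine receptors went both ways. Of 14 tested, 2 were higher, 2 lower and 10 did not pass (28.6% called). Cxcr4, which holds cells in the marrow, had 111, 93.9 and 86.5 CPM in the libraries labelled Cbl-b-/-, against 66.6, 68.8 and 66.1 CPM in Cbl-/-, and the fractalkine receptor Cx3cr1 had 654, 615 and 637 CPM in Cbl-b-/-, against 498, 492 and 508 CPM in Cbl-/-. Ccr1 was lower by -0.36 and lost its call without Cbl-b-/- 1 or 3 or Cbl-/- 1 or 2. For all 4 called genes of the list the DKO libraries lay nearer to Cbl-/-. The fractalkine ligand, Cx3cl1, had 3.69, 4.02 and 3.81 CPM in Cbl-b-/-, against 7.29, 8.88 and 9.53 CPM in Cbl-/-, so receptor and ligand differed in opposite directions.

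Of 19 paired and Fc receptors, 2 were higher, 2 lower and 15 did not pass (21.05% called). Fcrls, an Fc receptor-like protein of macrophages, had 116, 130 and 135 CPM in the libraries labelled Cbl-b-/-, against 74.4, 71.4 and 77.4 CPM in Cbl-/- (log2 fold change 0.77, SE 0.12). Pira2, whose family holds close copies and is therefore uncertain, had 77.5, 80.5 and 75.7 CPM in Cbl-b-/-, against 157, 167 and 154 CPM in Cbl-/-. Among 24 transcription factors of macrophages, 12.5% were called. Bhlhe41 was higher, with 99.7, 103 and 103 CPM in Cbl-b-/-, against 79.9, 75.2 and 74.4 CPM in Cbl-/-. Cebpd (0.44, higher) and Tfec (-0.45, lower) were also called, but Cebpd lost its call without any library other than Cbl-b-/- 1 and Tfec without Cbl-b-/- 1 or 3 or Cbl-/- 1, and 21 did not pass.

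Several lists were small or split evenly. Of 24 glycolysis and hypoxia genes 3 were higher, 3 were lower and 18 did not pass (25% called). The higher ones were led by the glycolytic regulator Pfkfb3 (36.8, 36.3 and 30.9 CPM in Cbl-b-/-, against 26.0, 25 and 25.6 CPM in Cbl-/-). Without each library in turn at most 1 of the lower ones was called. Of 19 matrix protease genes, Mmp14 and Mmp12 were lower by -0.94 and -0.49, Adamts1 was higher by 1.77 and 16 did not pass (15.8% called). The Adamts1 call was lost with any 1 library left out and the Mmp12 call without the DKO libraries. Of 12 osteoclast genes, Traf3 (-0.41) and Dcstamp (-1.25) were lower and 10 did not pass (16.7% called). The Dcstamp call was lost without any library other than Cbl-b-/- 1, with no filter on low counts and without the DKO libraries. Of 22 genes of ATF4 and unfolded protein stress, 0 passed edgeR's quasi-likelihood test, 3 had an unadjusted p under 0.05 and DESeq2 called 1, and the 2 with the smallest p were Phgdh (log2 fold change 0.24, adjusted p = 0.070) and Ddit4 (0.61, adjusted p = 0.084).

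Markers of the macrophages themselves were summed as a check of cell state. The 20 macrophage markers were all in the table and summed to 33130 to 35930 CPM in the libraries labelled Cbl-b-/-, against 28080 to 29300 CPM in Cbl-/-, where Lyz2 and Ctsd made up most of the difference. Lyz2, the lysozyme gene, had 16412, 17323 and 14937 CPM in Cbl-b-/-, against 12102, 13100 and 11915 CPM in Cbl-/- (log2 fold change 0.39, adjusted p = 0.0050). By gene, 4 markers were higher, 4 were lower and 12 did not pass (40% called). In bulk RNA, fewer cells of a type and less RNA per cell cannot be told apart.

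Marker lists of other cell types were summed in the same way. Of 12 monocyte and progenitor markers tested 1 was lower, Vcan (-0.40, adjusted p = 0.018). Its call was lost without Cbl-b-/- 1 or 3 or Cbl-/- 2 or 3, and it overlaps the gene model Gm4117. The list summed to 158 to 176 CPM in the libraries labelled Cbl-b-/-, against 172 to 184 CPM in Cbl-/-. The neutrophil list summed to 51.7 to 64.5 CPM in Cbl-b-/-, against 56.3 to 57.9 CPM in Cbl-/-, with Csf3r higher (0.57) and Stfa2l1 at 0 in all 6 libraries. The Csf3r call was lost without any library other than Cbl-b-/- 3. The B cell list summed to 10.6 to 12.95 CPM in Cbl-b-/-, against 6.74 to 8.49 CPM in Cbl-/-: Ighm, the immunoglobulin heavy chain, was higher (0.87, SE 0.12), and Vpreb3 was at 0. The T cell list summed to 47.4 to 53.1 CPM in Cbl-b-/-, against 41.6 to 42.1 CPM in Cbl-/-, nearly all of it Cd28 (0.29, adjusted p = 0.019), whose call was lost without any library other than Cbl-b-/- 3. The dendritic cell list summed to 64.0 to 70.4 CPM in Cbl-b-/-, against 62.4 to 72.6 CPM in Cbl-/-. The NK and innate lymphoid list summed to 101 to 128 CPM in Cbl-b-/-, against 119 to 129 CPM in Cbl-/-, and the erythroid and megakaryocyte list to 74.9 to 91.1 CPM in Cbl-b-/-, against 69.6 to 80.2 CPM in Cbl-/-. The mast cell and eosinophil lists summed to at most 2.11 CPM in a library of Cbl-b-/- and 2.93 CPM in Cbl-/-. In the lists for dendritic cells, NK and innate lymphoid cells, mast cells and basophils, eosinophils, and the erythroid and megakaryocyte lineages, 0 genes passed edgeR's test and DESeq2 called 0. An unadjusted p under 0.05 was found for 1 eosinophil and 1 erythroid or megakaryocyte gene. Collagen genes were the exception among stromal markers: Col1a1 had 0.348, 0.45 and 0.138 CPM in Cbl-b-/-, against 3.84, 2.52 and 2.24 CPM in Cbl-/-, with 5.94 to 7.94 CPM in DKO and 1.19 to 2.64 CPM in WT, and Col1a2 was lower by -2.00. The stromal list as a whole summed to 28.5 to 29.0 CPM in Cbl-b-/-, against 30.2 to 32.5 CPM in Cbl-/-, with Dcn at 0 in all 6. The part of these markers in the results above was not tested.

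All 4 genes of the Y chromosome that serve as a check of sex were higher in the libraries labelled Cbl-b-/-. They summed to 184 to 187 CPM in Cbl-b-/-, against 122 to 125 CPM in Cbl-/-, 171 to 239 CPM in DKO and 193 to 198 CPM in WT. Eif2s3y, a translation factor gene, had 58.9, 51.1 and 57.7 CPM in Cbl-b-/-, against 31.0, 34.5 and 30.7 CPM in Cbl-/- (log2 fold change 0.80, SE 0.11, adjusted p = 2.4e-04), and Kdm5d, a histone demethylase gene, had 25.7, 26.0 and 22.9 CPM in Cbl-b-/-, against 17.7, 17.0 and 16.6 CPM in Cbl-/-. Uty was higher by 0.65 and Ddx3y by 0.45, and Ddx3y lost its call without Cbl-b-/- 3 or Cbl-/- 1 or 2. Another called Y-linked gene model, Gm47283, chosen after its values were seen, was lower (-0.78). Xist was not analysed here. The share of males among the animals behind each library is not given in the labels, and the part of this difference in the results above was not tested.

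Calls were not spread evenly over the chromosomes. Chromosome 9, which carries Cbl, had 95 of 701 genes called (13.6%), chromosome 6 had 67 of 605 (11.1%) and chromosome 16, which carries Cblb, had 42 of 391 (10.7%), against 7.37% overall and 4.17% on the X chromosome. Within 5 Mb of Cbl, 13 of 66 genes were called (19.7%), 6 higher and 7 lower, and within 20 Mb 34 of 217 (15.7%). Within 5 Mb of Cblb, 4 of 20 were called (20%), and within 20 Mb 21 of 125 (16.8%). Genes named above that lie in the 20 Mb windows include Neo1 and Kif23, 14.6 and 17.7 Mb from Cbl. Ccdc58 and Fam162a lie 15.94 and 15.96 Mb from Cblb. These shares are descriptions without a test, and what the regions around the targeted genes carry in each group is not given in the labels.

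The genes called within 5 Mb of Cbl included Nxpe1-ps, a pseudogene, with 0.581, 0.739 and 0.184 CPM in the libraries labelled Cbl-b-/-, against 29.2, 24.7 and 28.2 CPM in Cbl-/- (log2 fold change -5.67, SE 0.22). Cadm1, an adhesion molecule (47530173 to 47857637), had 916, 807 and 782 CPM in Cbl-b-/-, against 509, 519 and 573 CPM in Cbl-/-. Hspa8, the constitutive heat shock protein Hsc70, had 1413, 1358 and 1290 CPM in Cbl-b-/-, against 2160, 2127 and 2145 CPM in Cbl-/-. In all 3 genes WT was nearer to Cbl-b-/-, and so was DKO for Nxpe1-ps and Cadm1. For Hspa8 the DKO mean, 1704 CPM, lay between the 2 groups and slightly nearer to Cbl-/- on the log2 scale. Nectin1, Gramd1b, Sc5d, Ubash3b and Rnf26 were lower as well, and Nlrx1, Rexo2, Zbtb16, Nxpe4 and Mcam were higher. Of these, Rnf26, Nlrx1, Rexo2 and Zbtb16 lost their calls without at least 1 library, and Rnf26 overlaps the gene model Gm26737. Around Cblb, Tbc1d23, a protein of the Golgi, had 114, 107 and 108 CPM in Cbl-b-/-, against 49.9, 47.8 and 47.0 CPM in Cbl-/-, with 109 to 140 CPM in DKO and 75.1 to 78.3 CPM in WT, and Nxpe3 was higher by 1.04. The long noncoding RNA gene Dubr had 24.4, 28.1 and 24.6 CPM in Cbl-b-/-, against 56.5, 54.2 and 50.5 CPM in Cbl-/-, and Bbx had 75, 75.1 and 78.9 CPM in Cbl-b-/-, against 116, 118 and 102 CPM in Cbl-/-. For Dubr and Bbx, WT and DKO were at the level of Cbl-b-/-.

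**Figure D5:**
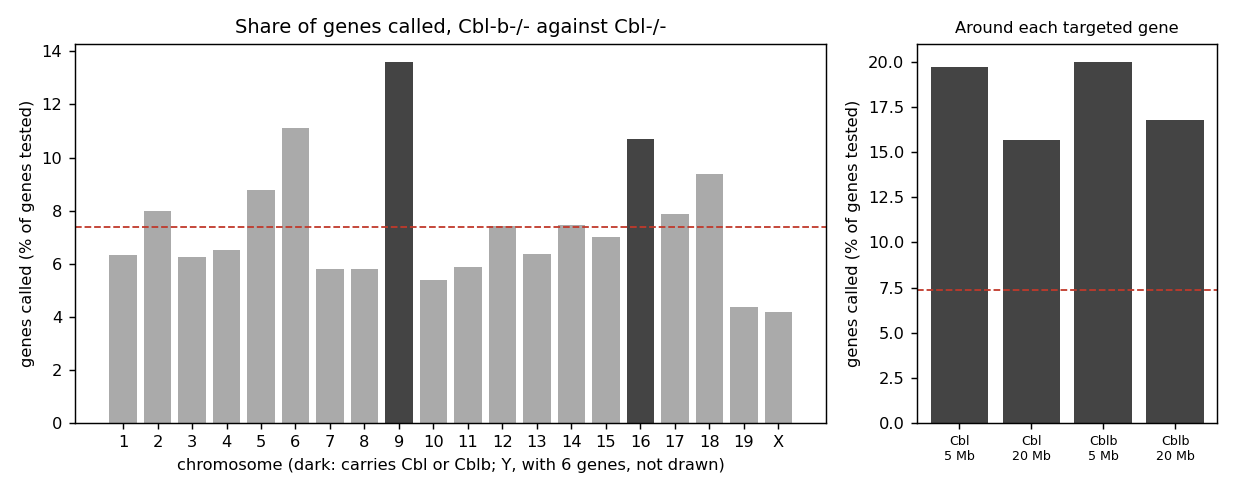
Share of tested genes called per chromosome (left) and within 5 and 20 Mb of Cbl and Cblb (right), in percent, with the share over all genes (7.37%) as a dashed line. Chromosome 9 (13.6%), which carries Cbl, has the highest share of the chromosomes drawn (Y, with 6 genes, is not), and the 4 windows lie between 15.7% and 20%.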

How the data were processed

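The authors deposited a table of whole-number counts of reads per gene in 12 libraries, not normalized. GRCm38.p5 was the build, per the submitters' processing notes. How reads were aligned and counted, and whether by strand, is not stated in the sources used here. Libraries were stranded TruSeq messenger RNA, per the labels' protocols. The table held 15555 genes, 15506 with a symbol in the GENCODE annotation of GRCm38. Each had at least 1 count in WT 1, so genes at 0 there were not analysed here.

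All 12 libraries were fitted with edgeR 4.0.16 in R 4.3.3 (filterByExpr, TMM factors, 1 mean per genotype, robust quasi-likelihood), which left 12671 genes and removed 2884. CPM used the TMM factors. The steps were tested on simulated data. Replicates differed by more than sampling noise (chi-square per degree of freedom 3.93 to 10.5 in the compared groups). Intervals are 95%.

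The 39 gene lists, the tests and the libraries compared were chosen with earlier results of these data known. Named genes were Cbl and Cblb, the 12 largest differences each way with a mean of at least 2 CPM, non-overlapping libraries and a symbol that is not a gene model name, up to 4 called members of a list with the smallest adjusted p (2 where none passed), and called genes within 5 Mb of Cbl or Cblb; others are said to be chosen after their values were seen. Lists are described by counts and medians, without a test. Alternatives used DESeq2 1.42.0 and limma 3.58.1 as well as other scalings, filters and subsets of libraries. Some items are not reported here.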

Additional observations from a re-analysis of the deposited data

How the results depend on the processing

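Of the 934 genes called between the libraries labelled Cbl-b-/- and Cbl-/-, 934 kept their direction in every alternative that tested them. With each library left out, 436 were called. Counts of calls were 1712 (759 higher and 953 lower) with the 6 compared libraries alone, 1896 (876 and 1020) without the DKO libraries and 1854 (841 and 1013) with 5 libraries alone, without Cbl-b-/- 3, an alternative chosen after seeing the data. All 3 leave out the DKO libraries, whose coefficient of variation was 11.9%. Without 1 library they were 533 to 737 (226 to 311 higher and 307 to 426 lower). Other scalings, filters and tests gave 847 to 1251. The share of higher genes was 41.8% to 46.2% over all of these. Nothing in the labels pairs the libraries by replicate number. Deviations of same-numbered libraries correlated at 0.0401, 0.0191 and 0.0519, each library correlating best with its own number, a hint from the data and not from the design. These small values do not settle whether the numbers pair the libraries. The replicate block gave 816 calls (344 higher and 472 lower), 788 of them among the 934. Cbl was called throughout, at 1.40 to 1.47 with each library left out, as was Cblb, at -0.40 to -0.33. Of 128 named genes that were called, 92 were called in every alternative that tested them, 32 lost the call without at least 1 library and 0 reversed. Genes that an alternative dropped, or gave no adjusted p, were not counted as lost there. Calls lost with any library left out were found at low level (Adamts1) and at higher level (Insig1), and the cause was not tested.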
